A study of Mus musculus with 6 samples.

Results

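Glucose and fructose use by the liver was followed through 8 genes in livers of 2-month-old mice, chosen by name: Slc2a2, Gckr, Pfkl, Pklr, Pkm, Ldha, Khk and Gys2. Each was found among the 18820 genes that had a probe set with 1 annotated symbol. Pkm had 2 such rows and the others 1 each; of several rows, the brightest on average across the 6 arrays was used. The study set 4 livers of the Pcyt2+/- genotype (replicates 1 to 4) against 2 wild type livers (replicates 3 and 4), all on a C57BL6 background, with 1 array per mouse. The titles call the Pcyt2+/- mice knock-out, although the genotype given carries 1 altered allele; how the allele was made, sex and feeding state are not stated in the labels. Pcyt2 encodes the enzyme that makes CDP-ethanolamine for phosphatidylethanolamine synthesis.

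Hepatocytes take up glucose through a high-capacity transporter, trap it as glucose 6-phosphate, and send it either to glycogen or down glycolysis to pyruvate and lactate. Fructose enters below the main control step of glycolysis, through ketohexokinase. After a meal the transcription factor ChREBP, encoded by Mlxipl, raises several of these genes, and the pathway runs opposite to the release of glucose in fasting.

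Values are the authors' log2 signals, and differences are Pcyt2+/- minus wild type. Array medians were 4.40 on each array and 94.4% of rows had a mean between 4 and 5. Of the 8 genes, Ldha, Pkm and Khk had a mean above 5. As a gauge of the floor, the rows of 14 muscle, fat and pancreas genes had means of 4.22 to 4.72. Gckr and Pfkl lay inside this range, and Gys2, at 4.72, lay level with its top. Near the floor a change in RNA gives only a small change in the log2 value. The 11 measured hepatocyte marker genes all had means above 5, up to 12.29 for Alb. Pcyt2 itself was lower on every Pcyt2+/- array, with 4.64 ± 0.028 (SD, n = 4) against 4.84 ± 0.064 (SD, n = 2) in wild type (limma adjusted p = 0.264).

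The 8 genes showed small differences in both directions, and 0 of them passed limma's test at an adjusted p under 0.05. Over all 18820 genes tested, 0% passed. At an unadjusted p under 0.05, 1 of the 8 was lower (Gys2) and 1 was higher (Pkm), where 3.44% of all genes were lower and 1.86% higher, 5.30% in all. Among the 792 genes with a mean above 5, as Pkm has, these shares were 14.6% lower and 5.56% higher in the same fit. The split over all genes depends on scaling: 648 lower and 350 higher as deposited, and 540 and 452 after quantile normalization. Of the 8 genes, 1 was lower and 2 were higher after quantile normalization, Pklr being added to the higher ones. With the replicate number as a block 3 were lower and 1 higher, Khk and Ldha being added to the lower ones. Over all 18820 genes that block fit had 702 lower and 293 higher. Numbers 1 and 2 occur only among Pcyt2+/- livers, so the block fit compares replicates 3 and 4 alone. Its p values rest mostly on limma's prior, as few arrays remain to gauge the spread. Group ranges did not overlap for 2 of the 8, again Gys2 on the lower side and Pkm on the higher, against 12.8% of all genes (7.17% lower and 5.67% higher). A mean lower in Pcyt2+/- was seen for 5 of the 8, against 51.9% of all genes, and the median difference of the 8 was -0.016, against -0.00073 over all genes. In whole liver, fewer cells of a type and less RNA per cell cannot be told apart.

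**Figure D1:**
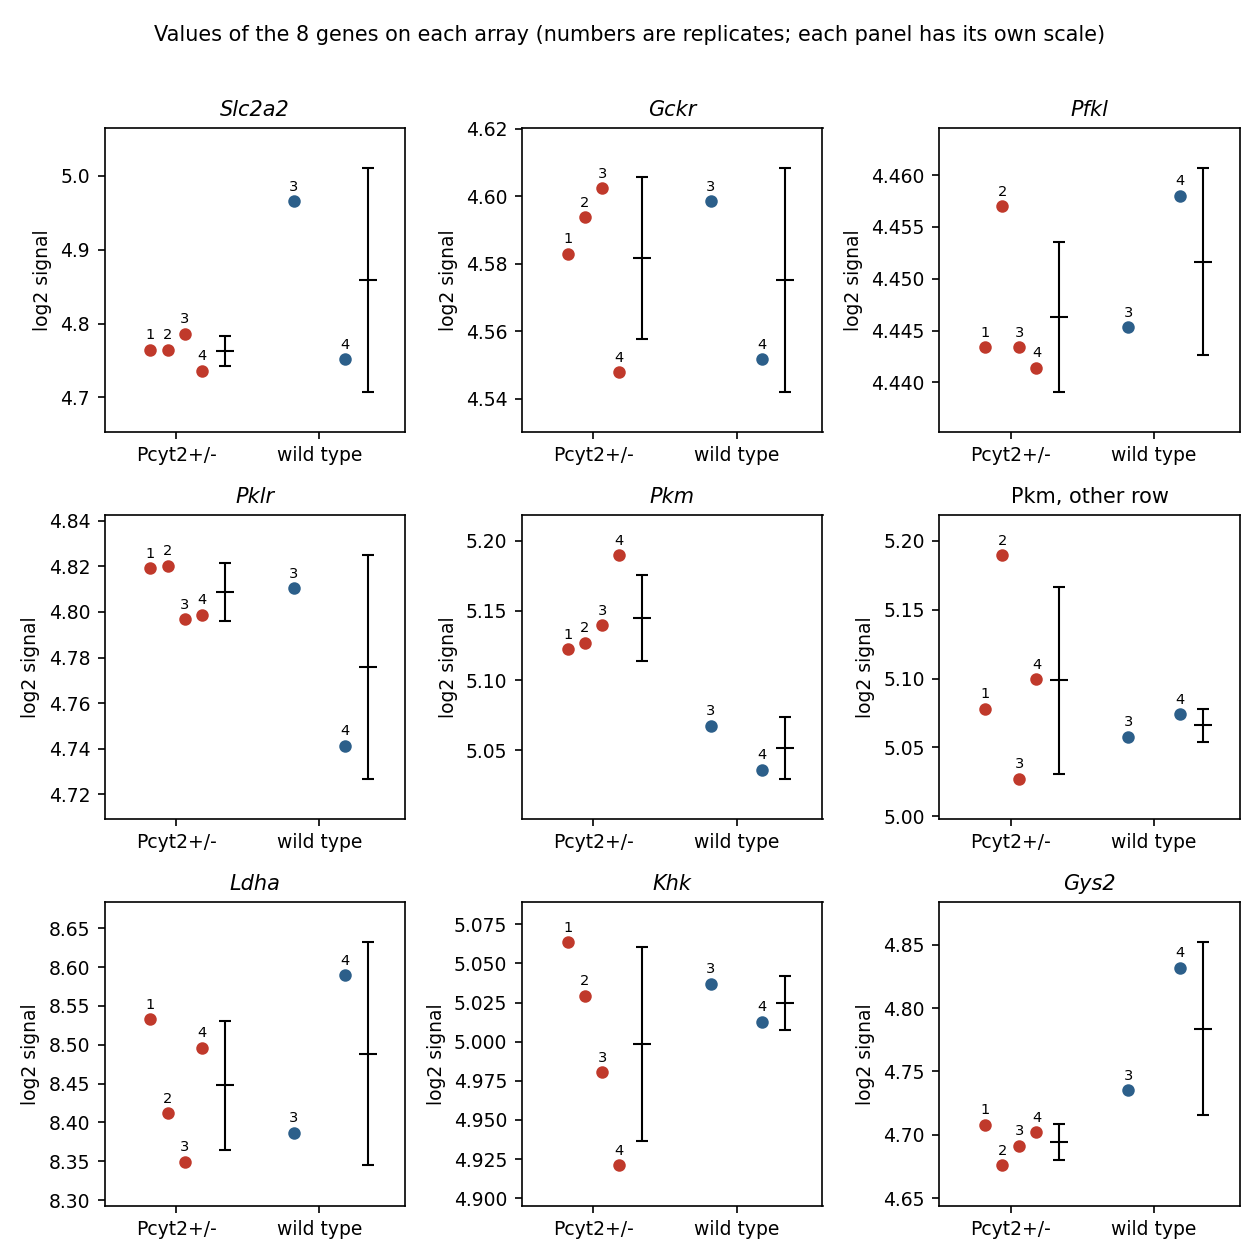
Each panel shows the log2 signal of 1 row on each array, with Pcyt2+/- on the left and wild type on the right; small numbers are replicates, and the bar beside the points is the mean ± SD (n = 4 and n = 2). Groups do not overlap for the row that stands for Pkm and for Gys2, while 1 wild type point of Slc2a2 lies above all others, and the vertical scales differ between panels.

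Slc2a2 encodes GLUT2, the transporter that lets glucose, galactose and fructose cross the hepatocyte membrane in both directions. Its log2 signal was 4.765, 4.765, 4.786 and 4.736 in Pcyt2+/- replicates 1 to 4, and 4.966 and 4.752 in wild type replicates 3 and 4. Wild type replicate 3 stood above all other arrays, whereas wild type replicate 4 fell inside the Pcyt2+/- range. The difference was -0.096 with a 95% interval of -0.22 to 0.028 (limma adjusted p = 0.949), and it was 0.011 without wild type replicate 3 and -0.20 without wild type replicate 4. The gap between both wild type arrays, 0.21, was thus wider than the difference between the group means.

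Gckr encodes a regulatory protein of the hepatocyte nucleus that restrains the phosphorylation of glucose when glucose is low. The signal was 4.583, 4.594, 4.603 and 4.548 in Pcyt2+/- livers and 4.599 and 4.552 in wild type livers. Both groups covered nearly the same range. The difference of 0.0066 had a 95% interval of -0.040 to 0.054 (limma adjusted p = 0.996), and its sign turned without Pcyt2+/- replicate 3 (-0.00033) or wild type replicate 4 (-0.017).

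Pfkl, the liver subunit of phosphofructokinase, which commits sugar to glycolysis, had a signal close to the median of the array. It lay between 4.441 and 4.457 in Pcyt2+/- livers and at 4.445 and 4.458 in wild type livers. The difference was -0.0054 with a 95% interval of -0.030 to 0.019 (limma adjusted p = 0.996), and 0.00098 without wild type replicate 4. A difference in its RNA was not detectable at this signal. Of the other subunits of this enzyme, Pfkp, the platelet type, had 4.43 ± 0.0079 in Pcyt2+/- livers (SD, n = 4) and 4.47 ± 0.031 in wild type livers (SD, n = 2), a difference of -0.045 that did not pass (limma adjusted p = 0.819; -0.023 without wild type replicate 3).

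Pklr encodes the pyruvate kinase of liver and red cells, which makes pyruvate at the end of glycolysis and is a textbook target of ChREBP. Its gene has 2 annotated starts in the promoter table of RefSeq (GRCm38.p6). The promoter of the downstream start, which serves the liver, is shown because it holds a pair of short sites to which ChREBP and its partner MLX bind. It covers chr3:89136373-89136672 on the plus strand, from 250 bases before the start to 50 after it. Capitals mark the match to CACGNG and CNCGTG with 5 bases between them.
Pklr: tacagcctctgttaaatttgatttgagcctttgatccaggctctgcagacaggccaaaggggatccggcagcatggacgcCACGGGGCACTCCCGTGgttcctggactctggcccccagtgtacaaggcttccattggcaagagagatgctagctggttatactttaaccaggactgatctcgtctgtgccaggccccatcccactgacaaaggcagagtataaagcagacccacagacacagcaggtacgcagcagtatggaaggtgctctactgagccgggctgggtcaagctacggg

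The match runs from base -170 to -154 relative to the start. Searched on both strands, this motif stood in 15 of 32851 promoters of the table, or 0.0457%. It was found in 1 of the 10 promoters listed for 7 of the 8 genes. A match in letters describes the sequence and does not show binding in these livers.

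The Pklr signal was 4.819, 4.820, 4.797 and 4.799 in Pcyt2+/- replicates 1 to 4, and 4.811 and 4.741 in wild type replicates 3 and 4. Only wild type replicate 4 lay outside the Pcyt2+/- range, below it. The difference was 0.033 with a 95% interval of -0.014 to 0.080 (limma adjusted p = 0.955), and -0.0017 without wild type replicate 4.

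Pkm encodes the pyruvate kinase of muscle and of most cells other than hepatocytes. On the row that stands for it the signal was 5.122, 5.127, 5.140 and 5.189 in Pcyt2+/- replicates 1 to 4, and 5.067 and 5.036 in wild type replicates 3 and 4. Every Pcyt2+/- array lay above both wild type arrays. Pcyt2+/- livers averaged 5.14 ± 0.031 (SD, n = 4) and wild type livers 5.05 ± 0.022 (SD, n = 2). The difference was 0.093, or 1.07-fold, with a 95% interval of 0.043 to 0.14, and was not called by limma (adjusted p = 0.607). An exact permutation test, two-sided over 15 splits, gave p = 0.0667, the smallest that 4 against 2 can give, so this test cannot reach 0.05. The unadjusted limma p was 0.0034 in the main fit. It was 0.025 with a trended and robust prior and 0.0495 in a fit of genes with a mean above 5 only. With any 1 array left out the difference stayed between 0.077 and 0.11.

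The other Pkm row did not separate the groups. It had 5.078, 5.189, 5.027 and 5.100 in Pcyt2+/- replicates 1 to 4, and 5.058 and 5.074 in wild type replicates 3 and 4. Both wild type arrays fell inside the Pcyt2+/- range, and the difference was 0.033 with a 95% interval of -0.063 to 0.13 (limma adjusted p = 0.983, exact permutation p = 0.60). The rows also differ in where their identifiers stand. On this array nearby identifiers belong to nearby genes: for the other Pkm row, 20 of the 20 nearest identifiers with 1 symbol belong to genes of chromosome 9, which carries Pkm. For the row with the higher mean, 0 of 20 belong to chromosome 9 and 17 to chromosome 5. No source used here says where its probes align, so the Pkm difference rests on a row whose place in the genome is uncertain.

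Markers of cells other than hepatocytes were read beside Pkm. All 11 measured Kupffer cell and macrophage genes were at the floor, with means of 4.28 to 4.64, and 0 of them had an unadjusted p under 0.05 by limma. Their summed linear signal was 243.9 to 249.8 in Pcyt2+/- livers and 247.7 to 248.5 in wild type livers. The 8 endothelial genes summed to 184.0 to 188.7 in Pcyt2+/- livers and 184.9 to 185.1 in wild type livers, and the 9 leukocyte genes to 184.6 to 186.0 in Pcyt2+/- livers and 184.7 to 184.8 in wild type livers. The 8 stellate cell and fibroblast genes summed to 193.8 to 203.1 in Pcyt2+/- livers and 197.1 to 201.1 in wild type livers. For each of these lists 0 genes reached that level and the sums overlapped between the groups. Of the 6 skeletal muscle genes, 1 was higher (Tnnt3, by 0.041) and 5 did not reach it, with sums of 141.5 to 142.6 in Pcyt2+/- livers and 141.3 to 142.6 in wild type livers. Of 4 exocrine pancreas genes 1 was higher (Cela1, by 0.031) and 3 did not reach it, and 0 of 4 adipose and 0 of 5 cholangiocyte genes reached it. The highest mean was 4.49 in the leukocyte list, 4.51 in the cholangiocyte list, 4.91 in the endothelial list and 5.08 in the stellate cell list. The muscle, adipose and pancreas genes are those of the floor gauge. With signals at or near the floor, overlapping sums cannot show whether the content of these cells differed. The part of other cells in the Pkm difference was not tested.

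**Figure D2:**
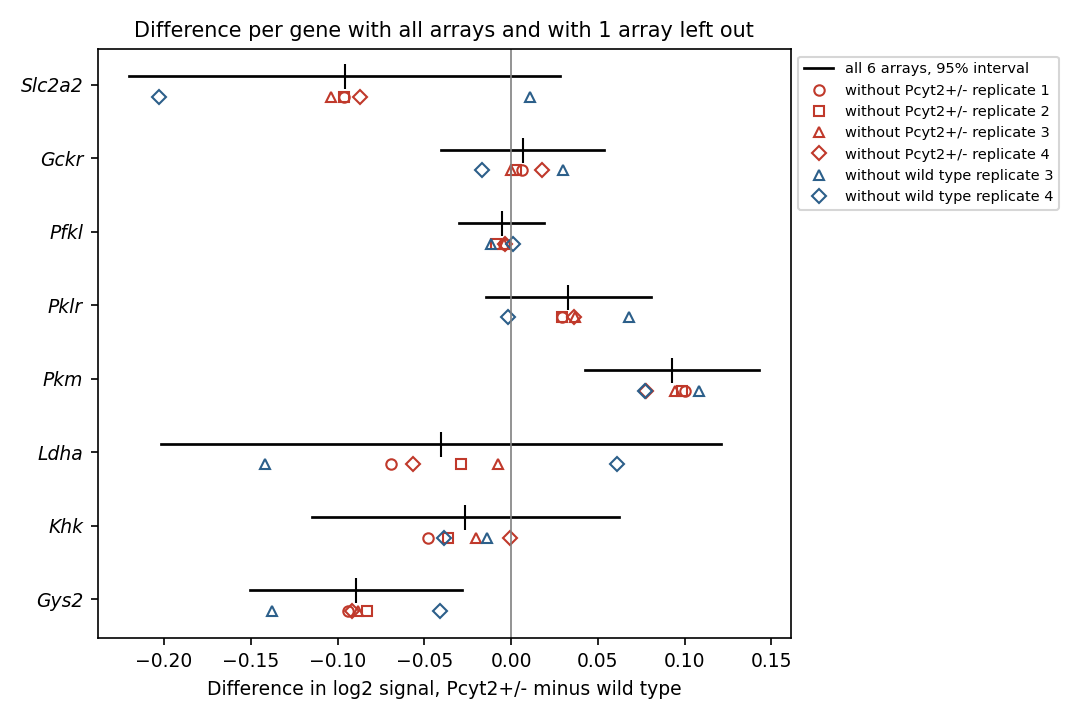
The horizontal axis gives the difference in log2 signal, Pcyt2+/- minus wild type; black lines are limma's 95% intervals with all 6 arrays, and open symbols are the differences with 1 array left out. Intervals of Pkm and Gys2 do not reach 0, and leaving out 1 wild type array turns the sign for Slc2a2, Gckr, Pfkl, Pklr and Ldha.

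Ldha encodes the lactate dehydrogenase subunit that turns pyruvate into lactate. E-boxes (CACGTG), the letters that ChREBP, MYC, USF and, through their core, hypoxia-inducible factors recognise, were searched in the promoters on both strands and stood in 7.15% of all 32851. Among the 7 genes with a listed promoter they were found for Ldha and Khk, and those stretches are shown with the E-boxes in capitals, from chr7:46845649-46845771 and chr5:30921461-30921520 (GRCm38.p6, plus strand).
Ldha: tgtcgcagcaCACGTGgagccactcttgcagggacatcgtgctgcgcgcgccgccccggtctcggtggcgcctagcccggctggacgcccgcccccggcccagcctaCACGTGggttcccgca
Khk: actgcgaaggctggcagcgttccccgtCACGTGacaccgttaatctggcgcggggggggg

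Ldha lay well above the floor of the array. Its signal was 8.533, 8.412, 8.350 and 8.496 in Pcyt2+/- replicates 1 to 4, and 8.387 and 8.590 in wild type replicates 3 and 4. The wild type arrays stood near opposite ends of the whole range. The difference was -0.041 with a 95% interval of -0.20 to 0.12 (limma adjusted p = 0.995), and its sign depended on the wild type array: -0.14 without replicate 3 and 0.061 without replicate 4.

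Khk encodes ketohexokinase, which phosphorylates fructose without feedback control. It was 5.063, 5.029, 4.980 and 4.921 in Pcyt2+/- replicates 1 to 4, and 5.037 and 5.013 in wild type replicates 3 and 4. The wild type values lay inside the Pcyt2+/- range. The difference was -0.026 with a 95% interval of -0.11 to 0.062 (limma adjusted p = 0.988), and -0.00049 without Pcyt2+/- replicate 4.

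Gys2 encodes the liver glycogen synthase, the enzyme that lengthens glycogen chains. Its signal was 4.708, 4.676, 4.691 and 4.702 in Pcyt2+/- replicates 1 to 4, and 4.735 and 4.832 in wild type replicates 3 and 4. Every Pcyt2+/- array lay below both wild type arrays, and wild type replicate 3 was the nearer of them. Pcyt2+/- livers averaged 4.69 ± 0.014 (SD, n = 4) and wild type livers 4.78 ± 0.068 (SD, n = 2). The difference was -0.089 with a 95% interval of -0.15 to -0.028, and was not called by limma (adjusted p = 0.784; two-sided exact permutation p = 0.0667). Leaving out wild type replicate 4 brought the difference to -0.041, and leaving out wild type replicate 3 to -0.14. Hepatocyte genes were read beside it. Of the 11 measured hepatocyte markers, 3 were lower at an unadjusted p under 0.05 (Cps1, Apob and Ttpa), 0 were higher and 8 did not reach that level. Among the 792 genes with a mean above 5, as all of these markers have, 14.6% were lower and 5.56% higher at that level in the same fit, against 3.44% and 1.86% of all genes. The markers' summed linear signal was 15075 to 16069 in Pcyt2+/- livers and 15308 to 16640 in wild type livers. Liver lobules use glucose mainly around the central vein and release it mainly near the portal tract. Of 11 pericentral genes, 3 were lower at that level and 0 were higher, 5 of the 11 having a mean above 5, with sums of 2443 to 2768 in Pcyt2+/- livers and 2622 to 2925 in wild type livers. Of 6 periportal genes, 4 of them with a mean above 5, 2 were lower and 1 higher, with sums of 1330 to 1611 in Pcyt2+/- livers and 1424 to 1544 in wild type livers. The part of these hepatocyte classes in the Gys2 difference was not tested.

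Because these genes lie near the floor, their signals were also read after subtracting each array's median on the linear scale. Gys2 then stood 5.03, 4.44, 4.69 and 4.90 linear units above the median in Pcyt2+/- livers, and 5.48 and 7.41 in wild type livers. Pkm stood 13.7, 13.8, 14.1 and 15.4 units above it in Pcyt2+/- livers, and 12.4 and 11.7 in wild type livers. Subtracting nearly equal medians keeps the order of the arrays and widens the differences by construction. They were -0.42 for Gys2, 0.24 for Pkm, -0.35 for Slc2a2 and 0.14 for Pklr on the log2 scale. The spread widened too. In this order of genes the SDs were 0.079, 0.075, 0.092 and 0.055 in Pcyt2+/- livers (n = 4). In wild type livers (n = 2) they were 0.31, 0.054, 0.55 and 0.20. None of them passed limma over the 3248 genes with a mean above 4.6 (adjusted p of 0.462, 0.558, 0.688 and 0.794 for these genes).

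**Figure D3:**
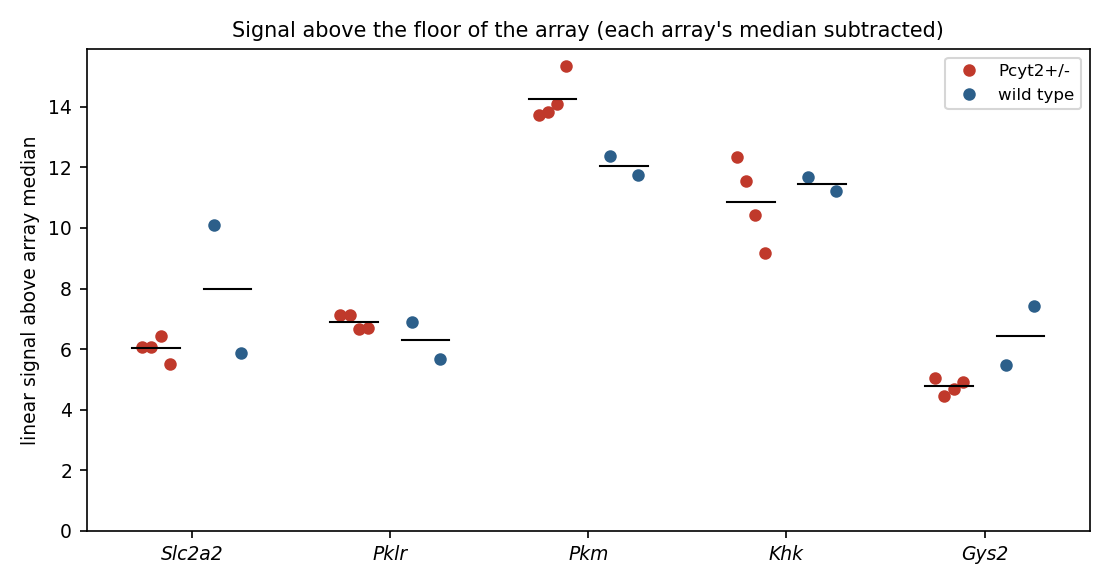
The vertical axis is the linear signal above the array's median for 5 of the genes, with Pcyt2+/- left of wild type; points are arrays and horizontal lines are group means. Gys2 is lower and Pkm higher on every Pcyt2+/- array, and the wild type points of Slc2a2, at 10.1 and 5.87 units, lie above all and among the Pcyt2+/- points.

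Around the 8 genes, 6 lists of sugar metabolism held 87 measured genes, these 8 included, of which 0 passed limma over all genes. At an unadjusted p under 0.05 there were 5 lower and 3 higher, or 9.20%, against 5.30% of all genes, with a median difference of -0.0088. The lists were chosen with earlier results of these data known. Of the 87 genes, 12 had a mean above 5, against 792 of all 18820, so the lists hold a larger share of brighter genes. Among those 792, 14.6% were lower and 5.56% higher at that level, so 5.30% is not a like background for the lists. Of the genes with an unadjusted p under 0.05, Pfkp, Foxo1, Pygb and Usf2 had means of 4.44, 4.48, 4.50 and 4.72. These lie inside the range of the floor gauge. The higher Pkm rests on the row whose place in the genome is uncertain.

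In glucose entry and sensing, 1 of 16 measured genes had an unadjusted p under 0.05 and was higher, and 15 did not. It was Mlxipl, the gene of ChREBP, with 5.21 ± 0.025 in Pcyt2+/- livers (SD, n = 4) and 5.12 ± 0.073 in wild type livers (SD, n = 2). The difference was 0.094 (limma adjusted p = 0.817), with 0.15 without wild type replicate 3 and 0.043 without wild type replicate 4. Txnip, a thioredoxin-binding protein and ChREBP target, had -0.060 (-0.0078 without wild type replicate 4 and -0.11 without wild type replicate 3). Among regulators of sugar-responsive genes, 1 of 15 was lower, 2 were higher and 12 did not reach that level. Usf2, an E-box binding factor, differed by -0.065 (-0.033 without wild type replicate 3) and Foxo1, which insulin silences, by 0.034, and neither passed over all genes (limma adjusted p of 0.784 and 0.909).

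In glycolysis and lactate, 1 of 21 measured genes was lower at an unadjusted p under 0.05 (Pfkp), 1 was higher (Pkm) and 19 did not reach it. In the fructose, polyol and galactose list 0 of 8 reached it. Glyctk, a glycerate kinase, came nearest with -0.098, but this became -0.010 without wild type replicate 4 and -0.19 without wild type replicate 3. Tkfc, which phosphorylates the glyceraldehyde made from fructose, had 0.016 (-0.020 without wild type replicate 4). Galt, of galactose breakdown, had -0.049 (-0.022 without Pcyt2+/- replicate 3), Galk2, a galactosamine kinase, 0.011, and Pmm2, a phosphomannomutase, -0.011 (-0.0054 without wild type replicate 3).

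In the glycogen list, 3 of 21 measured genes were lower at an unadjusted p under 0.05, 0 were higher and 18 did not reach it, against 3.44% lower and 1.86% higher over all genes. Beside Gys2 these were Ppp1r3b, which brings protein phosphatase to glycogen and activates the synthase, and Pygb, the brain type of glycogen phosphorylase. Ppp1r3b had 4.71 ± 0.054 in Pcyt2+/- livers (SD, n = 4) and 4.79 ± 0.033 in wild type livers (SD, n = 2), a difference of -0.085, with overlapping ranges. Pygb had -0.027. Both had a limma adjusted p of 0.913. Pygl, the liver glycogen phosphorylase, had 0.028 (0.014 without wild type replicate 4), and Gbe1, the branching enzyme, -0.014 (-0.0059 without wild type replicate 3).

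The pentose phosphate list had 0 of 8 genes at an unadjusted p under 0.05. Tkt, the transketolase, had -0.031, and H6pd, the hexose 6-phosphate dehydrogenase of the endoplasmic reticulum, 0.11 (-0.039 without wild type replicate 3). Pgls, a lactonase, had -0.017 and Rbks, the ribokinase, -0.012, and both turned sign without wild type replicate 3 (0.0017 and 0.0037). On the side of glucose release, 1 of 6 listed genes was lower at an unadjusted p under 0.05, 0 were higher and 5 did not reach it. The shares over all genes were 3.44% lower and 1.86% higher. The median difference was -0.18, and 4 of the 6 had a mean above 5. Among the 792 genes with such a mean, 14.6% were lower and 5.56% higher at that level, and the median difference was -0.020. The lower one of the 6 was Slc37a4, the glucose 6-phosphate transporter that opposes these steps. It had 4.63 ± 0.035 in Pcyt2+/- livers (SD, n = 4) and 4.84 ± 0.017 in wild type livers (SD, n = 2). The difference of -0.21 did not pass (limma adjusted p = 0.130).

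**Figure D4:**
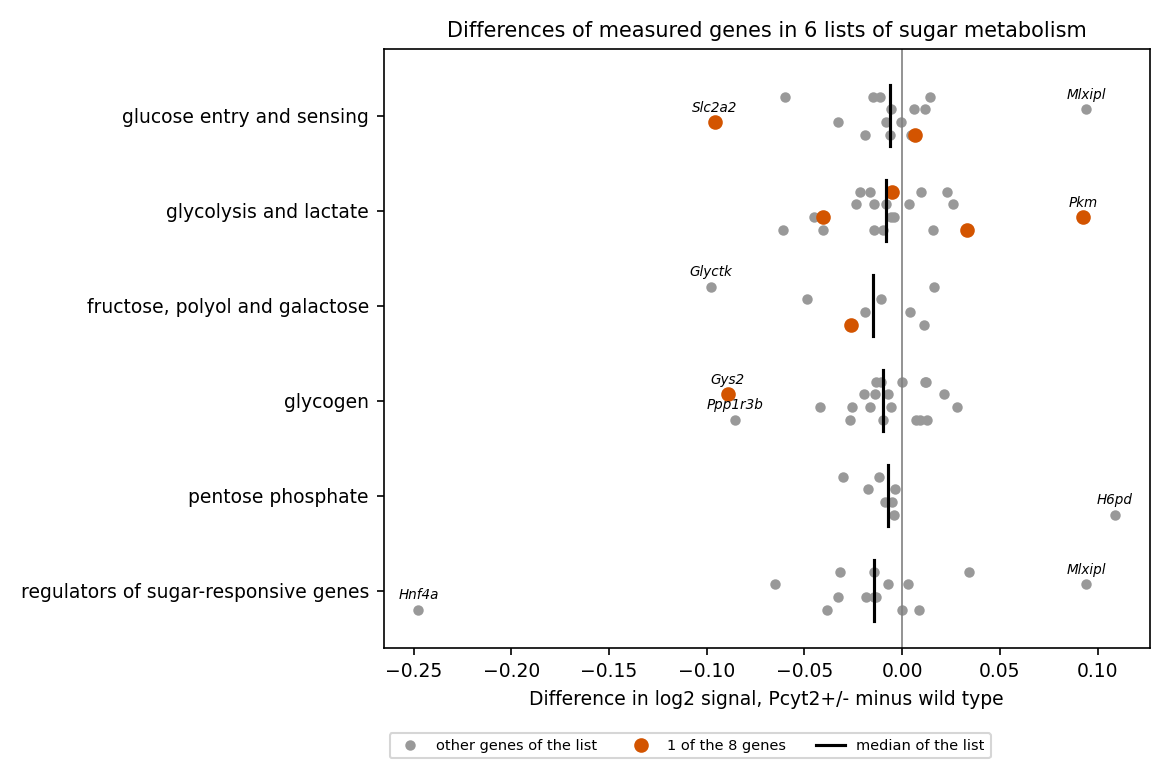
The horizontal axis gives the difference in log2 signal, Pcyt2+/- minus wild type, for each measured gene of 6 lists; orange points are the 8 genes, black lines are list medians, and genes beyond 0.08 in size are named. List medians lie between -0.015 and -0.0060, and Mlxipl and Mlx appear in 2 of them.

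The genes most like each of the 8 over the 6 arrays were sought among the genes with a mean above 5, by Pearson's r, as a description. For the Pkm row whose place in the genome is uncertain these were Mlxipl (r = 0.909), Txlna (0.905) and Car3 (0.872) among 791 genes. The other Pkm row was not used here. For Gys2 they were Tdo2, which starts tryptophan breakdown (r = 0.979), Ephx2, an epoxide hydrolase (0.978), and Cyp8b1, of bile acid synthesis (0.972), among 792 genes. Each of these had a lower mean in Pcyt2+/- livers. That follows from picking genes for a high r with Gys2 over the same arrays, and is no separate result. Slc2a2 was closest to Adamts17 (r = 0.972), Cyb5r3 (0.964) and Dgat2, of triglyceride synthesis (0.924). Pklr was closest to Cyp2c23 (r = 0.983), Fn1 (0.980) and Cyp1a2 (0.950), Ldha to Ndufb4 (0.978), Gabarapl2 (0.976) and Kdelr2 (0.972), and Khk to Syngr2 (0.976), Itih3 (0.961) and Rb1cc1 (0.932). Gckr was closest to Mir486 (r = 0.935), Mir680-3 (0.893) and Hsd17b6 (0.865), and Pfkl to Hykk (0.965), P4hb (0.921) and Scand1 (0.914). Gckr and Pfkl lie at the floor, so an r of this size over 6 arrays also arises for rows with hardly any signal. Gys2 lies level with the top of the floor gauge. For Slc2a2, wild type replicate 3 (4.966) stands apart from all other arrays, so its r values can rest largely on that array. All of these values share the same 6 arrays.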

How the data were processed

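Total RNA from snap-frozen liver was labelled for Affymetrix arrays from 100 ng, per the labels' protocols. The authors deposited 1 table of log2 signals, 1 row per probe set. The submitters' processing notes name RMA; neither its version nor a genome build is given in the sources used here. The table held 28996 rows without a missing value, of which 21218 had 1 symbol, 1881 several and 5897 none in the platform annotation. Of the rows with 1 symbol, 21185 were found by gene identifier in RefSeq's table of GRCm38.p6, with 0 symbols altered.

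The main test was limma 3.58.1 (R 4.3.3), with lmFit and eBayes at the default prior on all 6 arrays, two-sided and without covariates, adjusted by Benjamini-Hochberg over 18820 genes. It was tested on simulated data. Single genes were also tested by exact permutation over 15 splits. Other steps used Python 3.11.15, numpy 2.4.6, pandas 2.3.3 and matplotlib 3.10.9. For arrays the number of samples limits the precision. The labels name separate mice and no batch. The members and lists were chosen with earlier results of these data known. Named genes were the 8, some chosen by name (Mlxipl, Tkfc, Pygl, Gbe1, Txnip, Pcyt2), and in each list those with an unadjusted p under 0.05, or otherwise the 4 with the smallest p. For likeness, the 3 genes with the highest r were taken. Markers of other cell types were read as summed linear signal. Promoter sequences are from RefSeq.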

Additional observations from a re-analysis of the deposited data

Results flagged for a closer look

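Among the 4 Pcyt2+/- arrays, Pfkl had 1 value apart from the rest, 4.457 in replicate 2, with a gap to the next array of 0.872 of the whole range, above Dixon's critical value for 4 samples. The same check was run on 29 sets of 4 values, and chance flags about 1 in 20. The row lay close to the array's median, and the wild type value of replicate 4 was 4.458.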

How the results depend on the processing

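None of the 8 genes passed in any of the 16 other settings it entered, where their adjusted p by limma ran from 0.127 to 1. Of 114 single-gene differences under these settings, 107 kept their sign, 1 was 0 (Gckr with the replicate block) and 6 turned it, all with 1 array left out. Leaving out each array in turn gave -0.017 to 0.030 for Gckr, -0.20 to 0.011 for Slc2a2, -0.0017 to 0.068 for Pklr, -0.012 to 0.00098 for Pfkl and -0.14 to 0.061 for Ldha. Pkm (0.077 to 0.11), Gys2 (-0.14 to -0.041) and Khk (-0.048 to -0.00049) kept their sign. A fit without 1 wild type array assumes that the remaining one varies like the Pcyt2+/- arrays. With the other Pkm row, a setting chosen after seeing the data, the Pkm difference was 0.033. The count of all genes that passed was 0, against 9 with a trended and robust prior, 3 among genes with a mean above 5, 2 with a replicate block, 3 with the floor subtracted and 0 to 9 with 1 array left out; the cause was not tested. Only 3 of the 8 genes had a mean above 5, and 2 of these were lower, against 62.4% of the 792 genes of that kind. With the floor subtracted the median was -0.063 over 6 genes, against -0.036 over the 3248 genes of that fit, since Gckr and Pfkl had means under 4.6. Numbers 3 and 4 are shared by both groups, while 1 and 2 occur only among Pcyt2+/- livers. The deviations of equal-numbered arrays correlated at 0.147 and 0.0725 across genes, and Pcyt2+/- replicate 1 with wild type replicate 4 at 0.19. With 2 wild type arrays their deviations mirror each other, so these correlations cannot decide on pairing. The labels name separate mice, and the numbers were not read as pairs. The replicate block compares replicates 3 and 4 alone, fewer arrays than the main fit. With it Pkm differed by 0.11, Gys2 by -0.087, Slc2a2 by -0.098 and Khk by -0.074. In that fit 4 of the 8 genes had an unadjusted p under 0.05, against 2 without the block. Over all 18820 genes, 702 were lower and 293 higher at that level with the block, against 648 and 350 without it. The p values of the block fit rest mostly on limma's prior. Quantile normalization brought Khk to -0.011 and Ldha to -0.016. The dim signal of most of these genes limits what differences could be seen.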
